A study of Mus musculus with 8 samples.

Results

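The 10 genes described here are the MHC class II genes H2-Aa, H2-Ab1, H2-Eb1, H2-DMa, H2-DMb1, H2-DMb2, H2-Oa and H2-Ob, the invariant chain gene Cd74, and Ciita, the gene of the class II transactivator. They were chosen by symbol from the 55536 genes counted in bulk RNA-seq of mouse liver tumors, and all 10 had enough counts to be tested. HCA-1 tumors, grown from a mouse hepatocellular carcinoma line, were implanted in male C3H mice of 6 to 8 weeks of age, as the labels give it, whereas the study's methods give a younger age. On day 17 after implantation, 4 mice were given a single intravenous dose of PFSUV-IMQ, which is imiquimod (IMQ), an agonist of TLR7, carried in phospholipid-free small unilamellar vesicles (the labels call this group IMQNP). The control mice, also 4 in number, received saline. Tumors of both groups were taken at 3 h. Replicate numbers are 1, 2, 3 and 4 for the PFSUV-IMQ tumors and 1, 3, 4 and 5 for the control tumors. No group received empty vesicles or free imiquimod among these samples, so vesicle and drug cannot be told apart.

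MHC class II molecules present peptides taken up from outside the cell to CD4+ T cells. They are made chiefly by dendritic cells, macrophages and B cells, and many other cells make them after exposure to interferon gamma. An α and a β chain are assembled with the invariant chain, which blocks the peptide groove and directs the complex to endosomes. There the invariant chain is degraded, H2-DM exchanges its remnant for an antigenic peptide, and H2-DO restrains H2-DM. Transcription of these genes depends on CIITA, a coactivator that does not bind DNA itself and is recruited by RFX, CREB and NF-Y proteins bound to the X and Y boxes of class II promoters. NLRC5, a related protein, has the same role for MHC class I genes.

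Ciita (ENSMUSG00000022504) lies on chromosome 16 from 10480059 to 10528418 on the plus strand of GRCm38. Of the other members, 8 lie within the MHC on chromosome 17, between the start of H2-Oa at 34092340 and the end of H2-Eb1 at 34316674. H2-Aa (34282744 to 34287823) is on the minus strand, next to H2-Ab1 (34257689 to 34269419) on the plus strand. H2-Ob extends from 34238903 to 34254414, H2-DMb1 from 34153072 to 34160230, H2-DMb2 from 34143307 to 34151555 and H2-DMa from 34119541 to 34139101. Cd74 lies outside the MHC. All 10 are annotated as protein-coding.

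The promoter stretches of 4 members are shown because they differ in matches to the searched letters of the elements through which CIITA is recruited. Promoters were available for 7 of the 10 members in the RefSeq table of GRCm38.p6 and not for Ciita, H2-Ab1 or Cd74. Each stretch runs from 130 to 21 bases before the RefSeq start, is written 5′ to 3′ on the strand of the gene, and has matches to the searched Y box (CCAAT box) and X box letters in capitals. The coordinates are chr17:34287844-34287953 (minus strand) for H2-Aa, chr17:34305737-34305846 (plus strand) for H2-Eb1, chr17:34092249-34092358 (plus strand) for H2-Oa and chr17:34238775-34238884 (plus strand) for H2-Ob.
H2-Aa: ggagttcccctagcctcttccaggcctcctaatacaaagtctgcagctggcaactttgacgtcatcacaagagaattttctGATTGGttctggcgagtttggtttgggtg
H2-Eb1: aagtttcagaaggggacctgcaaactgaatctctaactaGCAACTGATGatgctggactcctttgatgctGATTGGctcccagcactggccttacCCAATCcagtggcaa
H2-Oa: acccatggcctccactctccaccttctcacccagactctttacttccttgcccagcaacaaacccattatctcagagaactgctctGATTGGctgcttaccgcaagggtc
H2-Ob: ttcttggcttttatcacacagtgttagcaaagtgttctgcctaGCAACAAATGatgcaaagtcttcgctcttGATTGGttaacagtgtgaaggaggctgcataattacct

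Promoter windows from 250 bases before to 50 bases after the start were searched on both strands. The CCAAT box letters GATTGG, the reverse complement of CCAATC, were found in all 7 member genes with a promoter, against 16.1% of all 32851 promoters in the table. These genes have 8 promoters, since H2-DMa has more than 1, and 7 of the 8 held a match. One promoter of H2-DMa held none, and the match in its other promoter lay 199 bases before the start. X box letters, G, any base, AAC, any 2 bases and ATG, were found in 3 of the 7, H2-DMb1, H2-Ob and H2-Eb1, at 94, 87 and 91 bases before the start, against 2.51% of all promoters. In the stretch from 130 to 21 bases before the RefSeq start, 99 of the 110 bases of H2-DMb1, its X box match included, lie in annotated exons. For H2-Oa this holds for 19 of the 110 bases. A gamma-activated site, TTCNNNGAA, was found in 1 of the 7, H2-DMb2, against 8.30% of all promoters. No interferon-stimulated response element, written as GAAA, any 2 bases and GAAA, was found in any of the 7, against 3.44% of all promoters. A match describes the letters of the reference sequence and is not evidence of a bound site. Other spellings of the elements were not searched, so a missing match does not show that a promoter lacks an X or Y box.

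Counts per tumor totalled 16883911 to 27687756, with medians of 21666487.5 in the control group and 18120051 in the PFSUV-IMQ group. Levels are given as CPM, which are counts scaled to a common library size by the TMM method. A gene with fewer than 3 counts in a tumor could not be told from one at 0, and 3 counts correspond to 0.108 to 0.178 CPM (counting error only). The label of a liver tumor was checked against hepatocyte and tumor markers. Alb ranged from 2938 to 22736 CPM over the 8 tumors, whereas Afp (2.1 to 6.08 CPM) and Gpc3 (0.629 to 1.99 CPM), which are common in hepatocellular carcinoma, were low in every tumor. HCA-1 tumors come from C3H mice, which carry the k haplotype of the MHC, and reads were assigned to genes of the C57BL/6 reference. The effect of these allele differences on the class II counts was not tested.

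The threshold for a call was an adjusted p under 0.05 in edgeR's quasi-likelihood test over 15998 genes. Of the 10 members, 0 were called higher and 0 lower in the PFSUV-IMQ tumors, whereas the test called 2.46% of all genes higher and 0.219% lower (2.68% in either direction). At an unadjusted p under 0.05, 0 members were higher and 1, Ciita, was lower, against 8.34% and 4.65% of all genes. DESeq2's Wald test called 0 members higher and 1, Ciita, lower, against 3.72% and 0.915% of the 19673 genes with an adjusted p in that test. The log2 fold changes of PFSUV-IMQ over control were above 0 for 3 members and below 0 for 7, with a median of -0.09, beside a median of -0.03 over all tested genes, of which 54.0% were below 0. Among the 9 structural and chaperone genes, log2 fold changes ranged from -0.58 for H2-Ob to 0.10 for H2-Oa, and every 95% interval included 0. The difference between Ciita and these genes was not tested. In bulk tumor RNA, fewer cells of a type and less RNA per cell cannot be told apart.

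**Figure D1:**
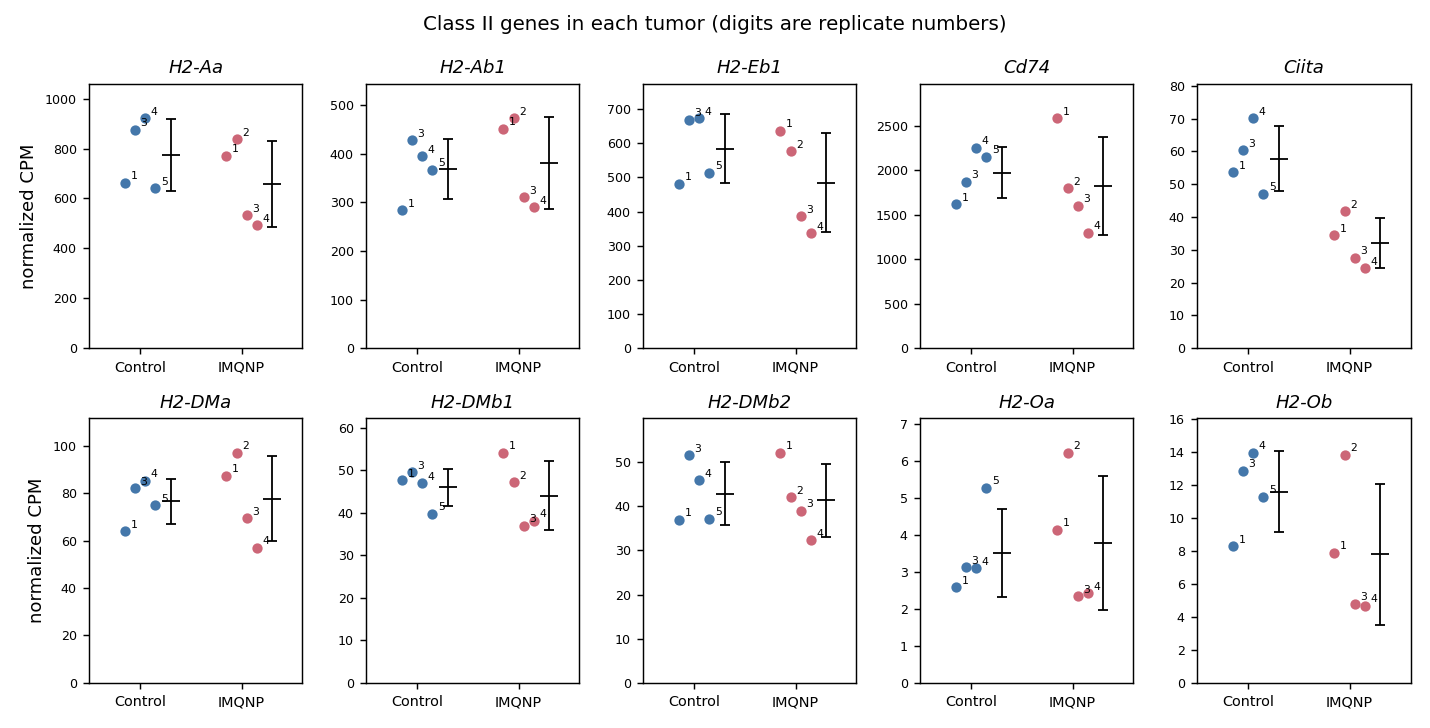
Each panel plots 1 of the 10 members, with the normalized CPM of every tumor as a point for the Control and IMQNP (PFSUV-IMQ) groups and the mean ± SD of the 4 tumors beside them. The groups overlap in every panel except that of Ciita, where the control tumors lie at 47.1 to 70.1 CPM and the PFSUV-IMQ tumors at 24.3 to 41.7 CPM.

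Ciita was at 53.6, 60.3, 70.1 and 47.1 CPM in control tumors 1, 3, 4 and 5 and at 34.4, 41.7, 27.6 and 24.3 CPM in PFSUV-IMQ tumors 1, 2, 3 and 4. Every PFSUV-IMQ tumor was below every control tumor, a separation that 3.28% of all tested genes showed in the same direction and 9.28% in either direction. None of the other members was separated in this way. The mean was 57.8 ± 9.86 CPM in control tumors and 32 ± 7.71 CPM in PFSUV-IMQ tumors (SD, n = 4 each). The fitted level in PFSUV-IMQ tumors was 55.4% of that in control tumors, a log2 fold change of -0.85 (95% interval -1.32 to -0.39, standard error 0.21), with an adjusted p of 0.0722 in edgeR's quasi-likelihood test. The difference thus exceeded the spread between tumors but did not pass the adjusted threshold. It did pass with upper-quartile normalization (adjusted p = 0.0393) and in DESeq2's Wald test (adjusted p = 0.0165).

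One tumor bore on that call. Without PFSUV-IMQ tumor 2, which had the highest Ciita level of its group, the log2 fold change of Ciita was -1.02 and the adjusted p was 0.0331 (edgeR). Leaving out each of the other 7 tumors in turn left the gene uncalled, and over the 8 omissions the log2 fold change ranged from -1.02 to -0.73 and the adjusted p from 0.0331 to 0.193. Ciita had 441 to 1717 counts per tumor, so counting error is small beside the spread between tumors. Annotated exons of Dexi on the opposite strand overlap 3.45% of the Ciita exon bases, and the strand setting of the counting is not given in the sources used here.

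**Figure D2:**
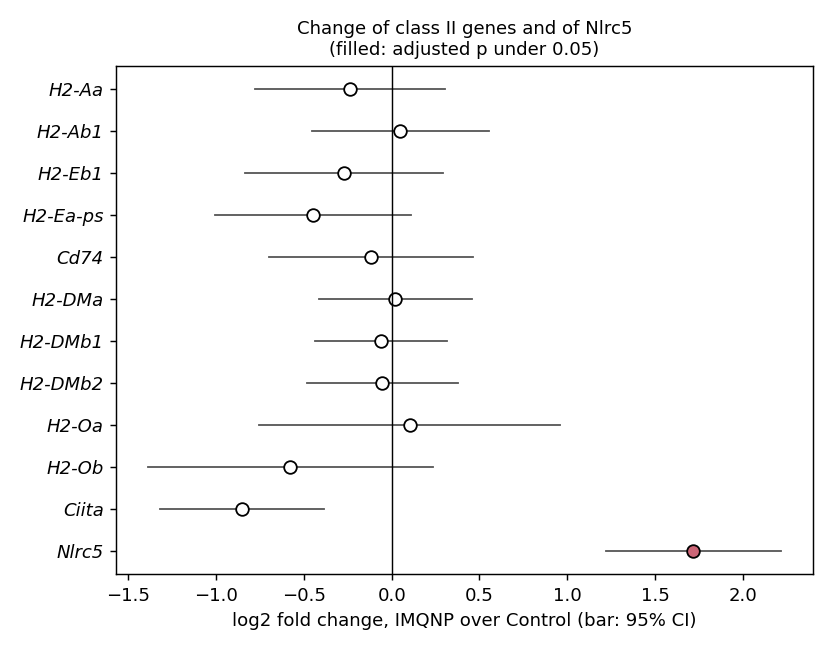
The log2 fold change of PFSUV-IMQ (IMQNP) over control from edgeR's fit is plotted for each member, H2-Ea-ps and Nlrc5, with its 95% interval as a bar and a filled point for a called gene. The interval of Ciita runs from -1.32 to -0.39, that of Nlrc5 from 1.22 to 2.22, and those of the other 9 members and of H2-Ea-ps include 0.

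The classical class II molecules are built from the chains of H2-A, encoded by H2-Aa (α) and H2-Ab1 (β), and of H2-E, whose β chain is encoded by H2-Eb1. H2-Aa was at 661, 876, 922 and 640 CPM in control tumors 1, 3, 4 and 5 and at 771, 837, 532 and 492 CPM in PFSUV-IMQ tumors 1, 2, 3 and 4. The PFSUV-IMQ tumors 3 and 4 were below all control tumors, and tumors 1 and 2 were within the control range. For H2-Aa the log2 fold change was -0.24 (95% interval -0.78 to 0.31, adjusted p = 0.779, edgeR). Its partner H2-Ab1 was at 283, 427, 395 and 367 CPM in the control tumors and at 451, 473, 311 and 290 CPM in the PFSUV-IMQ tumors, in the same order. Here PFSUV-IMQ tumors 1 and 2 were above all control tumors and the other two within their range, with a log2 fold change of 0.05 (95% interval -0.45 to 0.55, adjusted p = 0.963, edgeR). This small value turned to -0.027 with upper-quartile normalization. H2-Aa exceeded H2-Ab1 by 1.07 ± 0.20 on the log2 CPM scale in control tumors and by 0.78 ± 0.03 in PFSUV-IMQ tumors (SD, n = 4), and the ranges overlapped.

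H2-Eb1 was at 481, 668, 674 and 514 CPM in the control tumors and at 637, 577, 386 and 336 CPM in the PFSUV-IMQ tumors. As for H2-Aa, PFSUV-IMQ tumors 3 and 4 were the lowest of all 8. For H2-Eb1 the log2 fold change was -0.27 (95% interval -0.83 to 0.29, adjusted p = 0.750, edgeR). The E α chain gene is annotated as H2-Ea-ps, a polymorphic pseudogene in the reference strain, whereas mice of the k haplotype express a functional copy. It was read at 290 to 538 CPM in control tumors and at 244 to 408 CPM in PFSUV-IMQ tumors, with a log2 fold change of -0.45 (95% interval -1.0 to 0.11, adjusted p = 0.527, edgeR). The related locus H2-Eb2 was near the limit of detection, at 0.271 to 1.37 CPM in control tumors and 0.166 to 1.19 CPM in PFSUV-IMQ tumors (adjusted p = 0.710, edgeR), and H2-Pa had no counts in any tumor.

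Cd74 (chromosome 18, 60803848 to 60812652, plus strand) encodes the invariant chain. It was at 1620, 1873, 2254 and 2154 CPM in the control tumors and at 2590, 1798, 1599 and 1300 CPM in the PFSUV-IMQ tumors. The highest and the lowest of the 8 values were both in PFSUV-IMQ tumors, numbers 1 and 4. The spread was 1975 ± 287 CPM in control and 1822 ± 551 CPM in PFSUV-IMQ tumors (SD, n = 4 each). For Cd74 the log2 fold change was -0.12 (95% interval -0.70 to 0.46, adjusted p = 0.918, edgeR). The log2 fold change of Ciita (-0.85) lies outside this interval, but the interval of Ciita (-1.32 to -0.39) overlaps it. The difference between the 2 genes was not tested.

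H2-DM, the peptide exchange factor, consists of an α chain from H2-DMa and a β chain from H2-DMb1 or H2-DMb2. H2-DMa was at 63.8 to 85.3 CPM in control tumors and at 87.4, 97.0, 69.4 and 56.9 CPM in PFSUV-IMQ tumors 1, 2, 3 and 4. Its PFSUV-IMQ values thus lay above, within and below the control range. The log2 fold changes were 0.02 for H2-DMa (95% interval -0.41 to 0.46, adjusted p = 0.981), -0.06 for H2-DMb1 (-0.44 to 0.32, adjusted p = 0.937) and -0.05 for H2-DMb2 (-0.48 to 0.37, adjusted p = 0.955), all from edgeR. H2-DMb1 was at 46.0 ± 4.28 CPM in control and 44.1 ± 8.12 CPM in PFSUV-IMQ tumors, and H2-DMb2 at 42.9 ± 7.14 and 41.3 ± 8.25 CPM (SD, n = 4). H2-DMb1 and H2-DMb2 are near-copies, and 27.2% and 29.5% of the 50-base words of their longest transcripts occur in the other gene or elsewhere, so their split of reads is uncertain. Exons of Brd2 on the opposite strand overlap 10.4% of the H2-DMa exon bases.

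H2-DO, the inhibitor of H2-DM, is made mainly in B cells and consists of chains from H2-Oa and H2-Ob. H2-Oa had 42 to 97 counts per tumor, the fewest of the members, at 2.58, 3.13, 3.09 and 5.27 CPM in control tumors 1, 3, 4 and 5 and 4.14, 6.22, 2.34 and 2.43 CPM in PFSUV-IMQ tumors 1, 2, 3 and 4. Its log2 fold change was 0.10, with an interval from -0.76 to 0.96 (adjusted p = 0.955, edgeR). Differences of either sign inside that interval are compatible with these tumors. H2-Ob was at 8.29, 12.9, 14.0 and 11.3 CPM in the control tumors and at 7.89, 13.8, 4.8 and 4.69 CPM in the PFSUV-IMQ tumors. PFSUV-IMQ tumor 2 had the highest H2-Oa of all 8 tumors and by far the highest H2-Ob of its group. At -0.58 (95% interval -1.39 to 0.23, adjusted p = 0.590, edgeR), the log2 fold change of H2-Ob was the second most negative of the members. It was -1.02 without PFSUV-IMQ tumor 2 (adjusted p = 0.122, edgeR), and ranged from -1.02 to -0.39 over the 8 omissions. Leaving out PFSUV-IMQ tumor 3 or 4 gave -0.40 and -0.39. Exons of BC051537 on the opposite strand overlap 22.8% of the H2-Oa exon bases.

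The order of the members was compared per length, as control CPM per kilobase of annotated exon. Cd74 was highest at 1177 ± 171, and H2-Eb1 (301 ± 52.0), H2-Aa (204 ± 38.1) and H2-Ab1 (143 ± 24.0) followed (SD, n = 4). The DM genes H2-DMb1 (27.4 ± 2.54), H2-DMb2 (24.5 ± 4.09) and H2-DMa (22.2 ± 2.76) formed the next group, and their intervals of 1 SD overlapped. Ciita was at 6.06 ± 1.03 in control tumors and 3.36 ± 0.809 in PFSUV-IMQ tumors on this scale. H2-Oa (2.50 ± 0.848) and H2-Ob (2.16 ± 0.458) were lowest and overlapped. The intervals of 1 SD around H2-Aa and H2-Ab1 also touched. These spreads are between tumors, and the order per length was not compared within each tumor. Exon length is that of all annotated isoforms together, which lowers the value of a gene with long minor isoforms.

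Across the 8 tumors, the 36 pairs formed by the other 9 members had Pearson correlations of log2 CPM from 0.26 to 0.97, with a median of 0.74. The 9 pairs with Ciita had correlations from 0.20 to 0.86, with a median of 0.48. With the group means removed, the medians were 0.78 for pairs without Ciita and 0.79 for pairs with it. Within groups, the median for pairs with Ciita was thus close to that for the other pairs. These are descriptions over 8 tumors that share libraries and scaling factors.

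The ratio of Ciita to H2-Aa was 0.0817, 0.0694, 0.0766 and 0.0743 in control tumors 1, 3, 4 and 5 and 0.0453, 0.0504, 0.0528 and 0.0504 in PFSUV-IMQ tumors 1, 2, 3 and 4. The groups did not overlap, and the ratio was 1.52-fold lower in the PFSUV-IMQ tumors. On the log2 scale it was -3.73 ± 0.10 against -4.33 ± 0.09 (SD, n = 4). H2-Aa was singled out after its values were seen, and no test is given. Ratios of Ciita to Cd74 (-5.09 ± 0.28 and -5.79 ± 0.33 on the log2 scale) were also lower on average, but their groups overlapped.

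**Figure D3:**
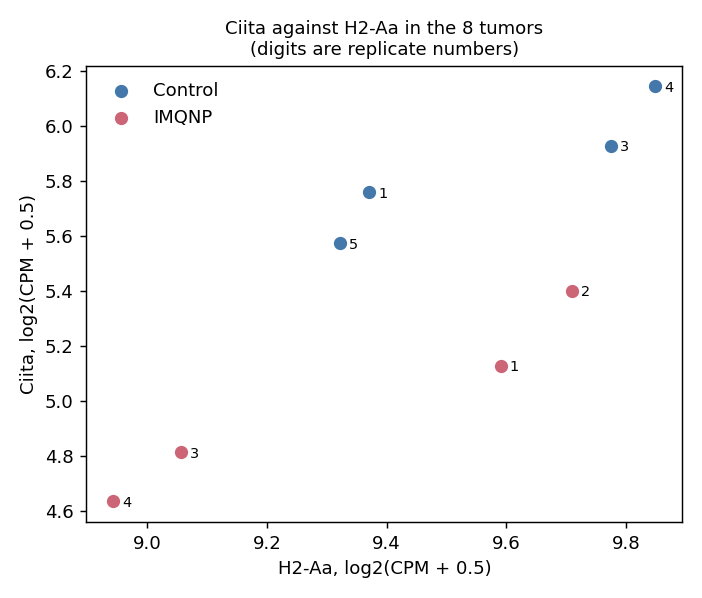
Ciita is plotted against H2-Aa for the 8 tumors, colored by group and marked with their replicate numbers, both axes in log2(CPM + 0.5). The PFSUV-IMQ (IMQNP) tumors lie below the control tumors at a given H2-Aa level, at ratios of 0.0453 to 0.0528 against 0.0694 to 0.0817.

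Nlrc5, the class I counterpart of Ciita (chromosome 8, 94434356 to 94527272), rose in the PFSUV-IMQ tumors. It was at 82.7, 92.4, 79.1 and 80.1 CPM in control tumors 1, 3, 4 and 5 and at 188, 386, 264 and 261 CPM in PFSUV-IMQ tumors 1, 2, 3 and 4. The groups were far apart, with a log2 fold change of 1.72 (95% interval 1.22 to 2.22, adjusted p = 0.00367, edgeR), and the call held in all 8 omissions of 1 tumor. The log2 ratio of Ciita to Nlrc5 was -0.54 ± 0.26 in control and -3.06 ± 0.43 in PFSUV-IMQ tumors (SD, n = 4), with values from -0.76 to -0.17 and from -3.40 to -2.43. The ratio was 5.75-fold lower in the PFSUV-IMQ tumors, lower in 4 of 4 than in any control tumor, with an exact two-sided permutation p of 0.0286, the smallest that 4 tumors against 4 can give. Both genes already separated the groups, in opposite directions, so that p was fixed beforehand and adds nothing to their separate results. Of 7 class I genes, Nlrc5 among them, 4 were called higher and none lower, with a median log2 fold change of 1.48. Besides Nlrc5 these were Tap1 (1.63, adjusted p = 0.00602) and Tap2 (1.5, adjusted p = 0.00876), which form the peptide transporter, and Tapbp (1.48, adjusted p = 0.0172), which encodes tapasin, in edgeR's test. The call of Tapbp was lost without control tumor 1. The genes of the class I chains, chosen after their values were seen, were not called. Their log2 fold changes were 0.88 for H2-K1 (adjusted p = 0.108), 0.64 for H2-D1 (adjusted p = 0.184) and 0.51 for B2m (adjusted p = 0.385, edgeR). H2-K1 and H2-D1 were higher in every PFSUV-IMQ tumor than in any control tumor, as were 6.0% of all tested genes, whereas the groups overlapped for B2m.

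**Figure D4:**
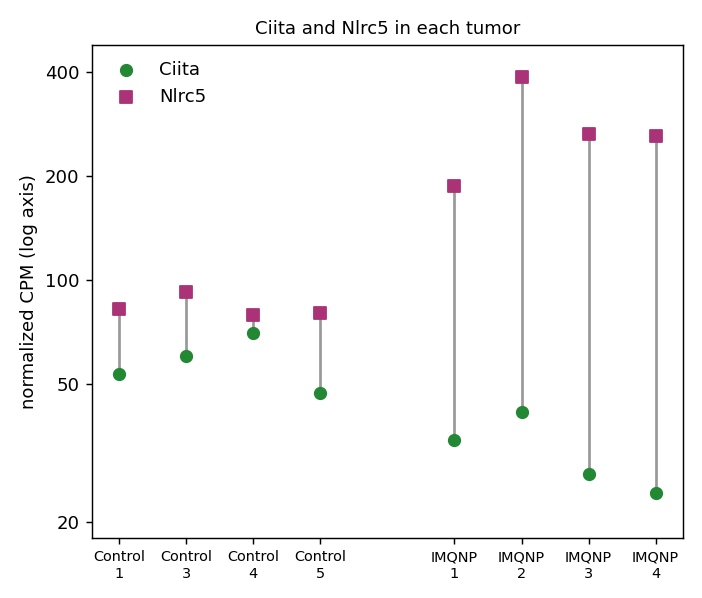
Normalized CPM of Ciita and of Nlrc5 in each of the 8 tumors is plotted on a log axis, with each line joining both values of 1 tumor. Nlrc5 is at 188 to 386 CPM in the PFSUV-IMQ (IMQNP) tumors and at 79.1 to 92.4 CPM in the control tumors, whereas Ciita is lower in the PFSUV-IMQ tumors.

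Genes that act upstream of Ciita were examined as lists. Of 9 genes on the route from interferon gamma to Ciita, 2 rose and none fell, with a median log2 fold change of 0.62. Irf2, which binds interferon-responsive promoters, rose from 79.7 ± 16.0 to 206 ± 80.0 CPM (log2 fold change 1.37, adjusted p = 0.0340, edgeR). Socs1, an inhibitor of JAK signaling, rose from 7.26 ± 2.36 to 48.6 ± 35.9 CPM (log2 fold change 2.74, adjusted p = 0.0137, edgeR), and 102 CPM was measured in PFSUV-IMQ tumor 2. For both genes every PFSUV-IMQ tumor was above every control tumor, a separation that 6.0% of all tested genes showed in this direction. The groups did not overlap for 4 of the 9 genes of this list, the 2 called genes among them. Over the 8 omissions of 1 tumor, the log2 fold change ranged from 1.06 to 1.53 for Irf2 and from 2.06 to 2.98 for Socs1. The call of Irf2 was lost on leaving out any 1 control tumor or PFSUV-IMQ tumor 3 or 4, and that of Socs1 without control tumor 1. Ifng itself was at 2.25 ± 0.996 CPM in control and 3.50 ± 1.45 CPM in PFSUV-IMQ tumors (adjusted p = 0.629, edgeR), and Irf1 had a log2 fold change of 0.87 (adjusted p = 0.0939), both chosen after their values were seen. Of 8 genes for the proteins that bind class II promoters, none was called, with a median of -0.08. The largest log2 fold changes among these were 0.60 for Rfx5 (adjusted p = 0.546) and -0.20 for Nfyc (adjusted p = 0.714). Nor was any called among 8 factors that regulate Ciita in particular cell types, among which Pax5 (1.91, adjusted p = 0.326) and Tcf3 (-0.39, adjusted p = 0.608) had the largest values in edgeR's fit.

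Genes that act on class II molecules after transcription showed no call either. Of 8 genes for lysosomal proteases and a thiol reductase, none passed the test and 7 had a log2 fold change above 0, with a median of 0.13. Ctsl, encoding cathepsin L, which degrades the invariant chain in some cells, had a log2 fold change of 0.31 (adjusted p = 0.756), and Ctsz one of 0.20 (adjusted p = 0.754, edgeR). Among 3 genes that set class II turnover, Marchf8, an E3 ubiquitin ligase, and Cd83, which protects class II from ubiquitination, had log2 fold changes of -0.32 (adjusted p = 0.596) and -0.26 (adjusted p = 0.830). Genes of costimulatory and coinhibitory molecules differed from this, with 2 of 7 called higher and none lower and a median of 1.08. Which cells of the tumor expressed them was not tested. Cd40, the receptor through which CD4+ T cells license dendritic cells, rose from 5.84 ± 1.33 to 39.5 ± 28.9 CPM (log2 fold change 2.75, adjusted p = 0.0110). Cd274, which encodes PD-L1, rose from 51.3 ± 27.4 to 304 ± 114 CPM (log2 fold change 2.57, adjusted p = 0.0102). Both calls held in all 8 omissions of 1 tumor.

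**Figure D5:**
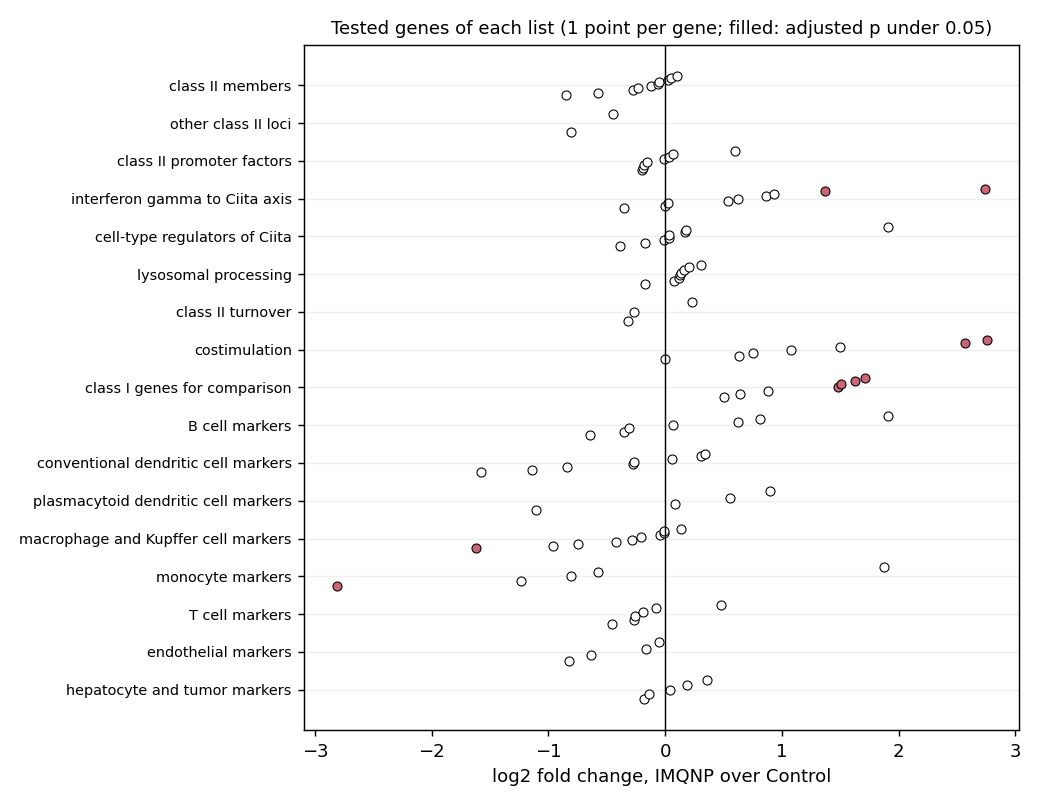
The log2 fold change of PFSUV-IMQ (IMQNP) over control is plotted for every tested gene of each list, with filled points for called genes. The class II members center near 0 (median -0.09), whereas the class I genes and the costimulation genes have medians of 1.48 and 1.08. Of the 7 class I genes, Nlrc5 among them, 4 were called.

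Markers of the cells that make class II molecules were read beside the members. B cell markers, 7 of 8 with enough counts, summed to 9.54 to 19.8 CPM in control tumors and to 8.59 to 43.5 CPM in PFSUV-IMQ tumors, with none called. The value of 43.5 CPM was that of PFSUV-IMQ tumor 2, which also had the highest Ciita, H2-Oa and H2-Ob of its group. That tumor was also the highest of its group for the summed T cell markers (147 CPM) and the summed macrophage and Kupffer cell markers (1500 CPM). It was not the highest for the summed conventional dendritic cell markers, of which Itgax made up a large part. Itgax was at 27.5 to 80.4 CPM in the PFSUV-IMQ group and lowest in tumor 2, whereas every other marker of that list was highest of the group in tumor 2. Conventional dendritic cell markers summed to 88.2 to 122 CPM in control and 74.7 to 118 CPM in PFSUV-IMQ tumors, and 0 of 8 were called in edgeR's fit, with 2 of them at an unadjusted p under 0.05. Of these 8 markers, 3 had a log2 fold change above 0 and 5 below, with a median of -0.27. Their largest log2 fold changes were -1.58 for Cd209a (adjusted p = 0.443), which was -0.65 without control tumor 4, and -1.14 for Flt3, the receptor for the dendritic cell growth factor (adjusted p = 0.147). Of 4 tested plasmacytoid dendritic cell markers, none was called, with Siglech at -1.11 (adjusted p = 0.271) and Lag3 at 0.90 (adjusted p = 0.238), and the list summed to 13.4 to 23.0 CPM in control and 18.1 to 42.4 CPM in PFSUV-IMQ tumors. Lag3, which T cells and NK cells also express, made up most of that sum, and without it the list summed to 4.88 to 8.46 CPM in control and 3.86 to 10.5 CPM in PFSUV-IMQ tumors.

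Macrophage and Kupffer cell markers summed to 1019 to 1511 CPM in control and 785 to 1500 CPM in PFSUV-IMQ tumors. Of these 10 genes, 1 fell, 9 had a log2 fold change below 0, and the median was -0.24. The gene that fell was Vsig4, a complement receptor of resident macrophages, from 17.3 ± 7.61 to 5.63 ± 2.1 CPM (log2 fold change -1.62, adjusted p = 0.0453, edgeR). Its call was lost on leaving out any single tumor other than PFSUV-IMQ tumor 2. Monocyte markers summed to 126 to 268 CPM in control and 57.5 to 149 CPM in PFSUV-IMQ tumors, with 1 of 5 called lower and a median of -0.81. This was Cx3cr1, the receptor for fractalkine, which fell from 71.0 ± 21.8 to 10.1 ± 3.59 CPM (log2 fold change -2.81, adjusted p = 0.00243, edgeR), a call that held in all 8 omissions of 1 tumor. Of the 5, 1 had a log2 fold change above 0 and 4 below. The 1 above was Ly6c2, a marker of inflammatory monocytes chosen after its values were seen. It was at 3.36 to 7.65 CPM in control and 9.43 to 34.8 CPM in PFSUV-IMQ tumors (log2 fold change 1.88, adjusted p = 0.0633, edgeR). Ccr2, another marker of these monocytes chosen in the same way, was lower, at 27.3 to 86.6 CPM in control and 18.4 to 29.8 CPM in PFSUV-IMQ tumors (log2 fold change -1.23, adjusted p = 0.0890, edgeR). Vsig4 and Cx3cr1, like Ciita, were lower in every PFSUV-IMQ tumor than in any control tumor, and their part in the Ciita difference was not tested.

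Outside the members, the genes whose log2 CPM most resembled that of Ciita over the 8 tumors were Rgs10 (Pearson r = 0.99), Rad51d (0.98), Cass4 (0.97), Dnajc27 (0.97) and Bcl7a (0.97). None of these was called, and their log2 fold changes ranged from -1.49 for Dnajc27 to -0.58 for Rgs10. For Cd74 they were Itga9 (0.98), Sil1 (0.97), Des (0.96), Acvrl1 (0.96) and Eln (0.96), with log2 fold changes between -0.23 for Des and -0.07 for Sil1. These are the highest of 15998 genes over 8 points that share libraries.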

How the data were processed

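RNA from 8 HCA-1 tumors was sequenced after mRNA library preparation, and the deposited file holds whole-number counts per gene, without normalization. A second deposited table holds signal values, which the authors made by dividing the counts of each tumor by 1 size factor (largest relative departure 5.0e-10). It holds 36670 genes and was used here only to pair gene identifiers with symbols. The study's methods name TopHat and HTSeq, whereas the submitters' processing notes name Trimmomatic 0.38, HISAT2 2.1.0 and featureCounts 2.0.0. The genome build is not given in the sources used here, and all 55536 gene identifiers match the GENCODE M21 annotation of GRCm38, from which coordinates were taken. A different aligner or counter could change the counts of near-identical genes such as H2-DMb1 and H2-DMb2.

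Counts were tested with edgeR 4.0.16 in R 4.3.3 (TMM, filterByExpr, glmQLFit and glmQLFTest, no covariate), with Benjamini-Hochberg adjustment over 15998 genes and a call at an adjusted p under 0.05. Standard errors were taken as the log2 fold change divided by the square root of F. The script was tested on simulated counts. Ratios were formed on log2(CPM + 0.5). The alternatives were DESeq2 1.42.0 with its size factors or Wald test, a minimum of 10 counts in every tumor, no low-count filter, upper-quartile scaling, a log2 fold change limit of 1, a term for the replicate number, other pseudocounts for the ratio, and each tumor left out. The floor of 3 counts per tumor covers counting error only. Tumors carry separate sample labels, and each is taken as 1 animal. According to the study's methods, the controls received saline, and its legends call them untreated. No batch is given, and mitochondrial genes took 1.37 to 6.65% of counts.

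The members and lists were chosen with earlier results of these data known. One gene of the lists is not reported here and enters no list count. Genes were named by a rule: the members, Nlrc5, the called genes of each list (at most 5) or otherwise the 2 with the largest log2 fold change, and the 5 genes most correlated with Ciita and with Cd74. Genes outside it are said to be chosen after their values were seen, apart from Alb, Afp and Gpc3, which check the tumor label.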

Additional observations from a re-analysis of the deposited data

Results flagged for a closer look

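A tumor was marked where its gap to the nearest other tumor of its group exceeded Dixon's critical share (95% level) of the group's range. Of 120 groups of values examined, 12 were marked, and chance marks about 1 in 20. PFSUV-IMQ tumor 2 accounted for most of these, as the highest of its group for Cd40 (82.9 CPM), Cd79a (8.45 CPM), Pax5 (9.50 CPM), Socs1 (102 CPM) and Tapbp (836 CPM). It was also the highest for the summed B cell markers (43.5 CPM), the summed monocyte markers (149 CPM) and the summed hepatocyte and tumor markers (29853 CPM). Control tumor 4 was the highest of its group for Cd209a (7.0 CPM) and Stab2 (38.1 CPM), and control tumor 5 for Ctsz (372 CPM). The log2 ratio of Ciita to Cd74 was lowest in control tumor 5, at -5.50. No level of a member was marked in either group.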

How the results depend on the processing

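The ratio of Ciita to Nlrc5 kept its direction under every alternative tried, and its difference of log2 means ranged from -2.73 to -2.40 over the omissions of 1 tumor. With the replicate block it was -2.55 over 3 pairs (exact p = 0.250, the smallest that 3 pairs can give). The numbers are those of different animals, and the deviations of same-numbered tumors correlated at 0.29, -0.27 and -0.32, so the pairing is by number alone. The replicate block called 519 genes higher and 302 lower over all tested genes, against 394 and 35 without it. DESeq2's Wald test called 731 and 180, no filter on low counts 510 and 64, and the omissions of 1 tumor 198 to 398 and 8 to 41. The cause of these differences was not tested. Of the members, 0 were called lower in the reported fit, against 1 with upper-quartile normalization, 1 in DESeq2's Wald test, 1 with the replicate block and 0 to 1 with 1 tumor left out, and in each case that gene was Ciita (log2 fold change -1.10 and adjusted p = 0.0369 with the block, edgeR). Of the pathway and marker genes, 4 were called higher, against 7 in DESeq2's Wald test and 2 to 4 with 1 tumor left out, and 2 lower, against 5 in DESeq2's Wald test, 5 with the replicate block and 1 to 3 with 1 tumor left out. Some log2 fold changes of uncalled genes changed sign, including those of Cd79a and Cd8a (0.81 and 0.48 as reported) on leaving out PFSUV-IMQ tumor 2. That of H2-Ob moved from -0.58 to -1.02 with the replicate block and to -1.02 without PFSUV-IMQ tumor 2. With the replicate block they were -0.083 for H2-Ab1, -0.13 for H2-DMa, -0.026 for H2-Oa, -0.24 for Cd8a and -0.56 for Ttr, and with upper-quartile normalization -0.027 for H2-Ab1 and -0.053 for H2-DMa. With 1 tumor left out they ranged from -0.34 to 0.019 for Cd74, -0.088 to 0.17 for H2-Ab1, -0.12 to 0.15 for H2-DMa, -0.18 to 0.014 for H2-DMb1, -0.19 to 0.054 for H2-DMb2, -0.26 to 0.36 for H2-Oa, -0.063 to 1.22 for Cd79a, -0.031 to 0.76 for Cd8a and -0.46 to 0.90 for Ttr. The causes were not tested.

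Depth limits H2-Oa, with 42 to 97 counts per tumor, more than the other members. With 4 tumors in a group, the width of the 95% interval differs between members, from -0.44 to 0.32 on the log2 scale for H2-DMb1 to -0.76 to 0.96 for H2-Oa. A gene's interval holds the differences compatible with its values and is not a limit of detection.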

Other observations

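Markers of other cells in the tumors were read in the same fit (edgeR's quasi-likelihood test). T cell markers summed to 56.2 to 131 CPM in control and 60.1 to 147 CPM in PFSUV-IMQ tumors, and none of 6 was called. Of these 6, 1 had a log2 fold change above 0 and 5 below, with a median of -0.22. The 1 above was Cd8a at 0.48 (adjusted p = 0.748), and the lowest was Trac at -0.45 (adjusted p = 0.611). Endothelial markers summed to 93.2 to 153 CPM in control and 73.2 to 112 CPM in PFSUV-IMQ tumors. All 4 of them had log2 fold changes below 0 and none was called, with -0.63 for Kdr, a receptor for vascular endothelial growth factor (adjusted p = 0.444), and a control range of 14.6 to 38.1 CPM against 8.64 to 20.5 CPM for Stab2, a scavenger receptor of liver sinusoids (adjusted p = 0.428). Hepatocyte and tumor markers summed to 4024 to 29298 CPM in control and 5689 to 29853 CPM in PFSUV-IMQ tumors, with none of 5 called. Of these 5, 3 had a log2 fold change above 0 and 2 below, with a median of 0.04. The largest were those of Gpc3 (log2 fold change 0.36, adjusted p = 0.805) and Ttr (0.19, adjusted p = 0.952).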
